A study of Sus scrofa with 59 samples.

Results

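Expression of 7 collagen genes was examined over the muscle of 59 pigs: COL1A2, COL3A1, COL5A1, COL5A2, COL6A2, COL6A3 and COL4A2. They were chosen by gene symbol in the platform annotation, all 7 were matched, and they had 14 of the 24123 probe sets and 7 of the 6765 named genes on the array. The name "fibrillar and basement membrane collagens" covers only part of them. COL1A2, COL3A1, COL5A1 and COL5A2 are chains of fibrillar collagens and COL4A2 is a basement membrane chain, whereas COL6A2 and COL6A3 belong to type VI collagen, which forms beaded microfilaments and is neither.

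Collagen chains are made in the endoplasmic reticulum, where prolines and lysines are hydroxylated and a triple helix is wound. Fibrillar collagens are secreted, trimmed, assembled into fibrils and crosslinked by lysyl oxidases, and in muscle they form the sheets of connective tissue around fibres and bundles that bear load and affect the toughness of meat. Type VI collagen links these fibrils to the surface of cells and muscle fibres, and type IV collagen is the network of the basement membrane that wraps each muscle fibre and each capillary.

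Each pig gave 1 Affymetrix porcine array, made from total RNA of the longissimus dorsi, the long back muscle. The animals, 170 days of age, came from a cross written LD/LW x Duroc in the labels; the labels give no treatment and no genotype that differs among them. The study recorded 33 carcass and meat quality traits to relate them to expression, but the trait values, the sex and the array batch of each pig are not in the labels and were not analysed here. The 59 arrays therefore form 1 group, and the comparisons below ask which genes varied with which collagen over the pigs. A piece of muscle holds many cell types, and more cells of a type and more RNA per cell cannot be told apart in such data. Array medians lay between 6.23 and 6.30 on the log2 scale, any 2 arrays correlated at 0.969 to 0.995 over probe sets, and no 2 arrays were identical.

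None of the 7 collagens differed by more than 2.44-fold between any 2 pigs. Each gene is described by its brightest probe set, and a level of 1 probe set cannot be set against that of another. COL6A3, the largest chain of type VI collagen, lay at 10.63 in the lowest pig, 11.24 at the median and 11.88 in the highest (mean 11.21 ± 0.29 SD, n = 59). COL6A2, its partner chain, ran from 7.02 over 7.35 to 7.87 (mean 7.37 ± 0.17). COL5A1, a chain of the minor fibrillar collagen that starts and narrows type I fibrils, ran from 7.85 over 8.28 to 9.13 (mean 8.32 ± 0.30), and its highest pigs stood further from the median than its lowest. COL4A2 ran from 8.77 over 9.28 to 9.86 (mean 9.28 ± 0.27). COL1A2, a chain of the main fibrillar collagen of muscle, ran from 6.89 over 7.21 to 7.65 (mean 7.23 ± 0.19). The remaining members were dim. COL3A1, the chain of type III collagen, ran from 5.42 over 5.75 to 6.53 (mean 5.80 ± 0.23), and COL5A2, the partner chain of COL5A1, ran from 5.79 over 6.17 to 6.61 (mean 6.17 ± 0.17).

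The distance from the lowest to the highest pig was thus between 1.69-fold for COL1A2 and 2.44-fold for COL5A1. The SD of COL5A1, 0.30, was above that of 78.0% of the probe sets tested, and those of COL6A3 and COL4A2 were above 76.5% and 69.4% of them. The SDs of COL1A2 and COL6A2 were above 40.0% and 32.3%, with a median of 0.21 over all tested probe sets. The 12000 probe sets tested had a mean of at least 6.27, the midpoint of all probe set means. Among the collagens 6 of 14 probe sets and 5 of 7 genes passed; COL5A2 lay just under that limit and COL3A1 further below it, and both are given without a test of their own unless stated.

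**Figure D1:**
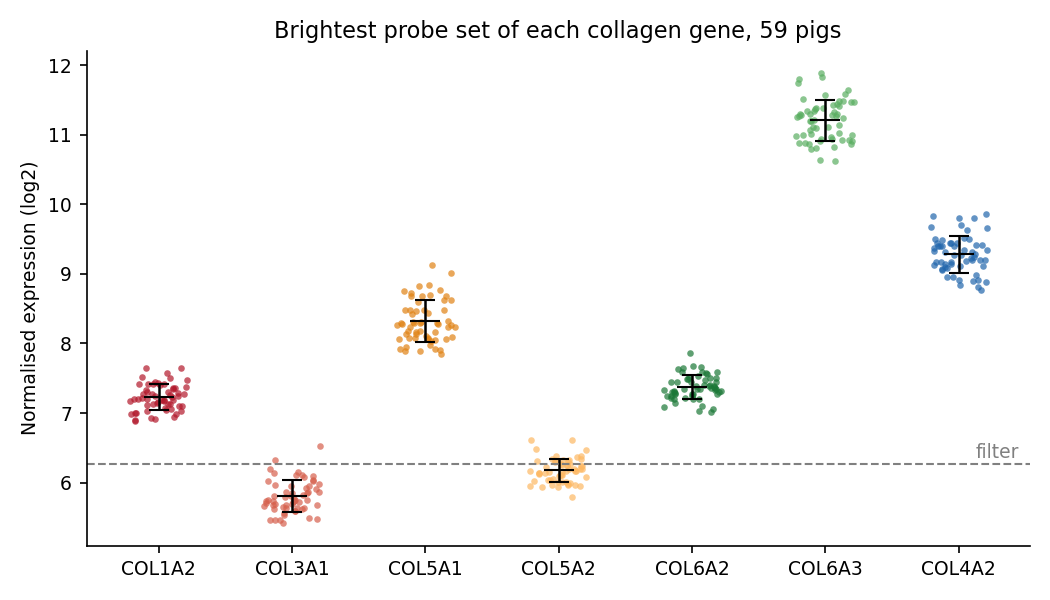
Normalised expression (log2) of the brightest probe set of each collagen gene; each point is 1 of 59 pigs, the bar is the mean and SD, and the dashed line is the limit of 6.27 for testing. COL3A1 and COL5A2 lie around or below the line, and COL5A1, COL6A3 and COL4A2 have the widest spread.

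Probe sets of the same collagen gene did not always measure the same thing. COL5A1 had 6 probe sets. Its 2 bright ones, with means of 8.32 and 8.26, correlated at Pearson's r = 0.73 and were highest in the same pig, number 19, while the 4 dim ones, with means from 4.48 to 5.74, correlated with the brightest at -0.08 to 0.32. Of the dim COL5A1 probe sets, 2 correlated with the brightest probe set of COL5A2 at 0.56 and 0.47, whereas the 2 bright ones did so at 0.056 and -0.0044. COL1A2 had a bright probe set and a dim one (means 7.23 and 3.95), which correlated at 0.04. The 2 probe sets of COL5A2, with means of 6.17 and 4.92, correlated at 0.32. The dim COL5A1 probe sets correlated among themselves at -0.24 to 0.52. COL3A1, COL6A2, COL6A3 and COL4A2 had a single probe set each, so this could not be looked at for them.

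**Figure D2:**
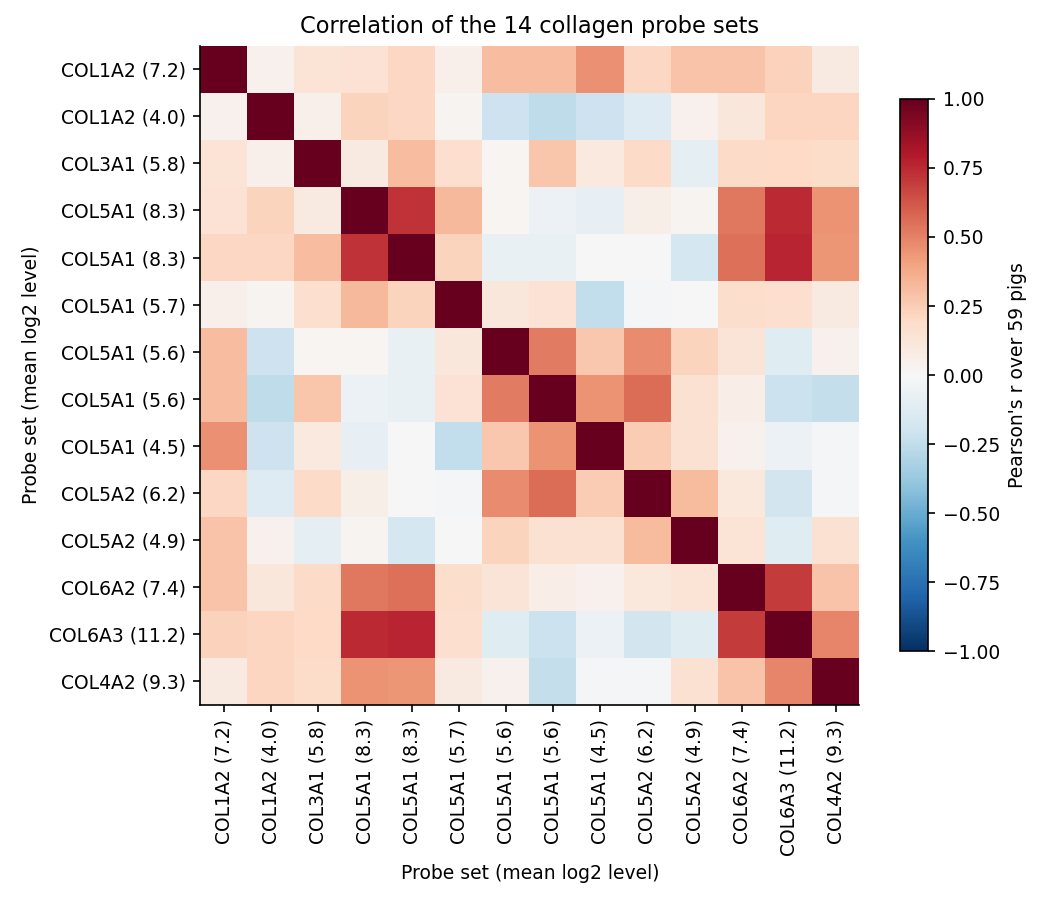
Pearson's r over 59 pigs between all 14 collagen probe sets, each labelled with its gene and its mean log2 level. A block of high values joins the 2 bright COL5A1 probe sets with COL6A2 and COL6A3, and a second, weaker block joins dim COL5A1 and COL5A2 probe sets.

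The collagens fell into members that rose and fell together over the pigs and members that did not. COL5A1, COL6A2, COL6A3 and COL4A2 shared 5 correlated pairs, and COL1A2, COL3A1 and COL5A2 had no partner that passed the test. Each member in turn was the predictor in a limma fit over all tested probe sets, with Benjamini-Hochberg adjustment over all of them and a threshold of 0.05, and a pair counted as called where the larger adjusted p of both directions was below it. For a pair with COL3A1 or COL5A2, only the direction with that dim member as predictor could be fitted, and its adjusted p was used. By this rule 5 of the 20 pairs that could be tested were called, all positive. In the same fits the share of all tested probe sets that were higher with the predictor was 5.74% for COL5A1, 4.66% for COL6A2, 9.73% for COL6A3, 5.04% for COL4A2, 1.35% for COL1A2, 0.917% for COL3A1 and 6.08% for COL5A2.

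COL5A1 and COL6A3 went together most closely, with r = 0.75 and Spearman's rho = 0.71 (permutation p = 1e-05 for each, the smallest that 100000 resamples can give) and a limma adjusted p of 8.2e-09. COL6A2 and COL6A3, chains of the same type VI molecule, had r = 0.70 and rho = 0.64 (permutation p = 1e-05 for each, adjusted p in limma 5.2e-07). COL5A1 and COL6A2 had r = 0.53 and rho = 0.45 (permutation p = 4e-05 and 0.00051, adjusted p in limma 0.0012). The fibrillar chain COL5A1 thus rose with both type VI chains; differences between these correlations were not tested.

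COL4A2 was tied more loosely to the same members. Its r with COL6A3 was 0.49 and its rho 0.51 (permutation p = 0.00013 and 5e-05, adjusted p in limma 0.0048). With COL5A1 it had r = 0.45 and rho = 0.44 (permutation p = 0.00038 and 0.00041, adjusted p in limma 0.012). With COL6A2 it had r = 0.28 and rho = 0.31, which did not pass (permutation p = 0.028 and 0.018, adjusted p in limma 0.149, and 0.031 with the first principal component as covariate, which gave 6 called pairs). After removal of the 2 pigs most distant from the median level of one member of the pair, the r of the 5 called pairs lay between 0.41 and 0.71. Leaving out any 1 pig changed the call of none of the 20 pairs.

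The other members gave weak values with the brightest probe set of every partner. Among these COL1A2 had its highest r with COL6A2, at 0.28 (rho 0.27, permutation p = 0.029 and 0.041, adjusted p in limma 0.205), and 0.14 with COL3A1 and 0.15 with COL5A1. With the dim probe sets of COL5A1, COL1A2 had r = 0.46 (rho 0.44), 0.31, 0.31 and 0.05. COL3A1 lay between 0.09 and 0.20 with the brightest probe sets of all other members. With the other bright probe set of COL5A1 it had r = 0.31 (rho 0.29), against 0.09 with the brightest. COL5A2 lay between -0.18 with COL6A3 and 0.21 with COL1A2, and had r = 0.06 with COL5A1, its partner chain in type V collagen. COL3A1 and COL5A2 are adjacent among the protein-coding genes of the RefSeq annotation of Sscrofa11.1, with 0 between them, and correlated at r = 0.19 (rho 0.20, permutation p = 0.147 and 0.13; no limma test, as both lay under the limit). The dim levels of COL3A1 and COL5A2 stand beside these values, and their part in them was not tested.

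**Figure D3:**
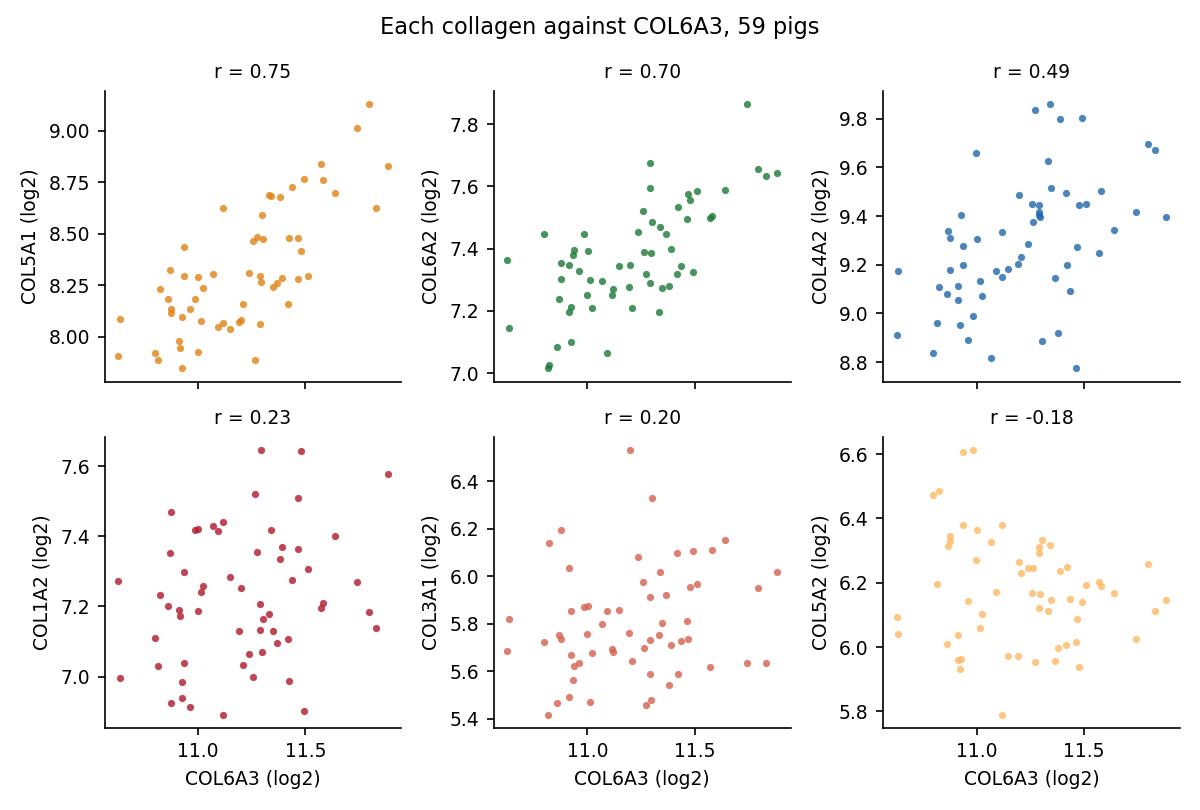
Each collagen's brightest probe set (log2, vertical) against COL6A3 (log2, horizontal), 1 point per pig, 59 pigs. COL5A1, COL6A2 and, less so, COL4A2 rise with COL6A3 (r = 0.75, 0.70 and 0.49), and COL1A2, COL3A1 and COL5A2 show no clear trend (r = 0.23, 0.20 and -0.18).

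Pigs 19, 26 and 44 were near the top of COL5A1, COL6A2 and COL6A3, and other pigs led COL4A2. Pig 19 had the highest COL5A1, the 3rd highest COL6A2 and COL6A3 and the 5th highest COL4A2 of the 59. Pig 26 had the highest COL6A3 and ranked 4th in COL5A1 and COL6A2, and pig 44 had the highest COL6A2 and ranked 2nd in COL5A1 and 4th in COL6A3; in COL4A2 these pigs ranked 21st and 18th. Pig 12, highest in COL4A2, ranked 10th in COL5A1, 17th in COL6A2 and 20th in COL6A3. At the low end, pig 70 was lowest in COL6A2 and COL3A1 and ranked 56th in COL6A3 and 57th in COL5A1. In COL1A2, pig 26 ranked 3rd, pig 44 24th and pig 19 35th.

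Markers of the cell types that a muscle piece can hold separated the collagens. A score was the mean of a marker list's standardised genes, scaled to an SD of 1, and a slope is the log2 change per SD of that score. COL6A3, COL6A2 and COL5A1 rose with fibroblast markers, and COL4A2 rose with endothelial markers. The fibroblast score held 11 genes that are no member, among them DCN and LUM, small proteoglycans that bind fibrils, THY1, a surface protein of fibroblasts, and LOX, the crosslinking lysyl oxidase. On it the slope was 0.25 ± 0.022 (SE) for COL6A3, 0.21 ± 0.028 for COL5A1 and 0.13 ± 0.016 for COL6A2, with limma adjusted p of 1.4e-13, 4.8e-08 and 1.5e-09. These were 3 of 5 tested members, where 19.1% of all tested probe sets were called in either direction. COL4A2 had 0.074 ± 0.033 (limma adjusted p = 0.109; 0.0426 without pig 37 and 0.0039 with the first principal component as covariate), and COL1A2 had 0.032 ± 0.024 (limma adjusted p = 0.37).

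On the endothelial score, with 9 genes such as PECAM1, CDH5 and VWF, which mark the lining of vessels, COL4A2 had a slope of 0.16 ± 0.028 and a limma adjusted p of 4.3e-05. It was 1 of 5 tested members, where 3.46% of all tested probe sets were called. The other 4 tested members lay between -0.0081 and 0.053, with limma adjusted p of 0.54 to 0.93. The difference between the fibroblast and the endothelial slope was then tested in 1 model, a test added after the single slopes had been seen. Fibroblast minus endothelial slope was 0.26 ± 0.033 for COL6A3, 0.19 ± 0.044 for COL5A1 and 0.12 ± 0.024 for COL6A2 (limma adjusted p = 2.1e-07, 0.0025 and 0.00049), so 3 of 5 tested members followed fibroblast more than endothelial markers, where 14.2% of all tested probe sets differed in either direction. For COL4A2 the difference had the opposite sign, -0.11 ± 0.042, and did not pass (limma adjusted p = 0.073, and 0.035 to 0.162 with each pig left out). For COL1A2 it was 0.048 ± 0.038 (limma adjusted p = 0.42).

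**Figure D4:**
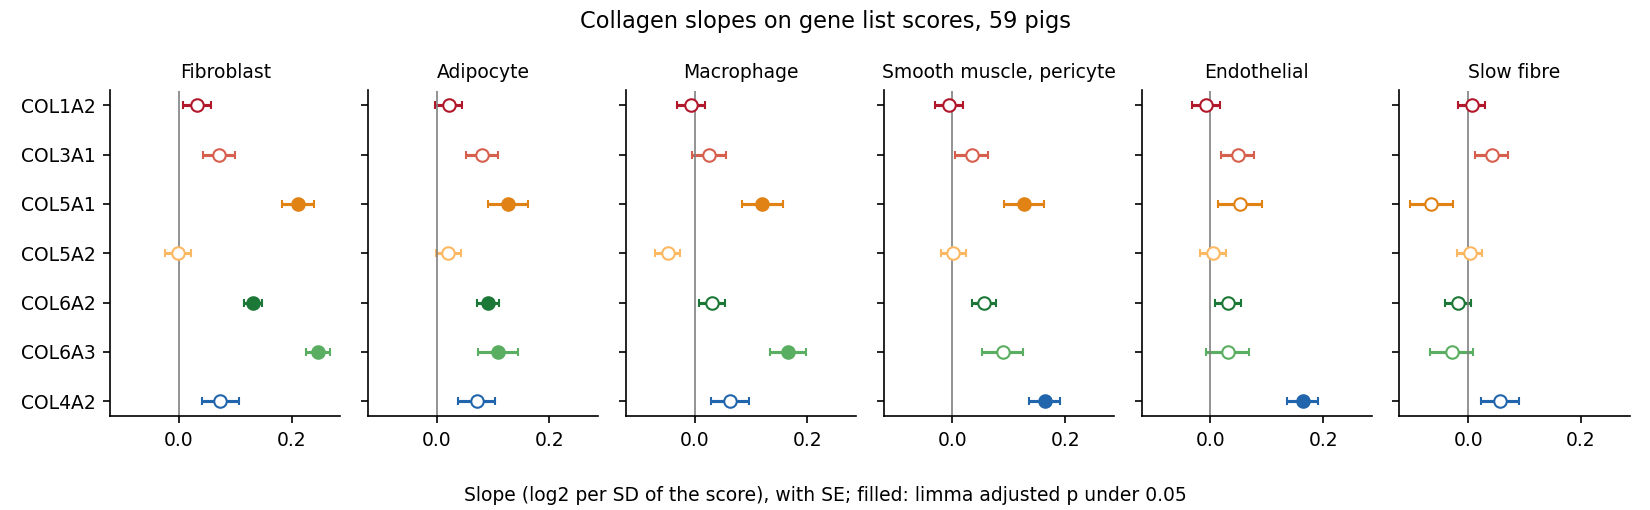
Slope of each collagen (log2 per SD of the score) on scores of marker genes for 6 cell or fibre types, 59 pigs; bars are standard errors, and filled points have a limma adjusted p under 0.05. COL5A1, COL6A2 and COL6A3 are filled for fibroblast and adipocyte scores, COL4A2 for endothelial and smooth muscle scores, and no member for slow fibres. COL5A1 is also filled for the smooth muscle score, and COL5A1 and COL6A3 for the macrophage score. COL3A1 and COL5A2 are open throughout because they were not tested.

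Smooth muscle and pericyte markers, which overlap in vessel walls with endothelium (the 2 scores correlated at r = 0.69), gave COL4A2 a slope of 0.16 ± 0.028 (limma adjusted p = 3.9e-05). COL5A1 had 0.13 ± 0.036 on the same score (limma adjusted p = 0.036), a call lost with re-centred arrays, normal scores of the predictor, the mean of a gene's probe sets, without the 2 extreme pigs, and without any 1 of pigs 2, 12, 19, 20, 33, 44, 45 and 70. These were 2 of 5 tested members, where 2.45% of all tested probe sets were called. Macrophage markers gave COL6A3 0.17 ± 0.032 and COL5A1 0.12 ± 0.036 (limma adjusted p = 0.00013 and 0.023), 2 of 5 tested members against 9.42% of all tested probe sets.

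The adipocyte score held only 4 genes, FABP4, CFD, CIDEA and LEP, as ADIPOQ, PPARG and other defining markers lay below the limit for testing. On it COL5A1 had a slope of 0.13 ± 0.036, COL6A3 0.11 ± 0.036 and COL6A2 0.091 ± 0.020 (limma adjusted p = 0.013, 0.030 and 0.0019), 3 of 5 tested members against 15.8% of all tested probe sets. The call of COL6A3 was lost with normal scores (adjusted p = 0.053), with the first principal component as covariate (adjusted p = 0.086), and without any 1 of pigs 16, 19, 26 and 44, all in limma. The adipocyte and fibroblast scores correlated at r = 0.55 and the macrophage and fibroblast scores at r = 0.47, so these slopes are not separate results.

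With all 5 cell type scores in 1 model, a fit added after the single ones had been seen, the fibroblast slopes of COL6A3, COL6A2 and COL5A1 were 0.22 ± 0.027, 0.14 ± 0.020 and 0.17 ± 0.037 (limma adjusted p = 1.3e-08, 2.6e-06 and 0.0018), where 4.84% of all tested probe sets were called on the fibroblast term. On the adipocyte term the 5 tested members lay between -0.047 and 0.020 (limma adjusted p = 0.25 to 0.86), where 4.53% of all tested probe sets were called. COL6A3 had a macrophage slope of 0.075 ± 0.023 (limma adjusted p = 0.024; background 11.8%). COL4A2 had 0.094 ± 0.037 on the endothelial and 0.11 ± 0.039 on the smooth muscle and pericyte term, and neither passed (limma adjusted p = 0.23 and 0.29). Those 2 terms called 1.05% and 0.376% of all tested probe sets.

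Neither fibre type score gave a call for a tested collagen. On the slow fibre score the limma test called 0 of 5 members, 0 also had an unadjusted p under 0.05, and 4.97% of all tested probe sets were called. The fast fibre score called 0 of 5 members in limma, 1 with an unadjusted p under 0.05 (COL6A3, 0.085 ± 0.037, adjusted p = 0.076), where 28.5% of all tested probe sets were called. Its genes TNNC2, MYH2, MYLPF and CKM had means of 14.62 to 14.79, near the highest value of 15.04 on any array. Their SDs were only 0.029 to 0.048, and the part of a signal ceiling in this was not tested. Immediate early genes, which cells switch on within minutes of stress, called 0 of 5 members in limma and 0 at an unadjusted p under 0.05, against 29.1% of all tested probe sets. The heat shock score, which 46.1% of all tested probe sets followed, called 1 of 5 members, COL6A2, at -0.053 ± 0.022 (limma adjusted p = 0.042), and that call was lost with no filter (limma adjusted p = 0.058), with re-centred arrays, with the first principal component as covariate and without any 1 of 17 pigs. The difference between the 3' and 5' control probe sets of actin, GAPDH and an elongation factor, a measure of RNA quality, called 0 of 5 members in limma and 1 at an unadjusted p under 0.05 (COL1A2, -0.049 ± 0.024), against 7.76% of all tested probe sets. Single controls differed, though the elongation factor and actin alone also called 0 of 5 members in limma. On the elongation factor COL4A2 had -0.084 ± 0.033 (limma adjusted p = 0.131) and COL6A3 -0.064 ± 0.037. On actin COL6A3 had 0.066 ± 0.037.

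Genes of the interstitial matrix rose with COL6A3. In its fit 1616 of 11999 probe sets were called, 13.5%, of which 1168 were higher with COL6A3 and 448 (3.73%) lower. Of the genes fixed as partners of collagen fibrils, 13 of 14 tested rose with it, with a median slope of 0.26 per SD of COL6A3 against -0.0024 over all tested genes. FN1, fibronectin, ran from 9.85 over 10.81 to 12.01 and was the most alike of all genes, with r = 0.89 and a slope of 0.45 ± 0.031. FBN1, fibrillin of the elastic microfibrils, had r = 0.83 and a slope of 0.25 ± 0.022, with both of its probe sets called. SPARC, a collagen-binding glycoprotein, had 0.78 and 0.18 ± 0.019, and DCN, decorin, 0.70 and 0.17 ± 0.024. The exception was THBS2, at r = 0.06. Of the fibroblast markers 10 of 11 rose, which share DCN, LUM, DPT and FBN1 with the former list; THY1 had r = 0.755 and a slope of 0.36 ± 0.041, and CD34 was the marker that did not pass, at r = 0.13. These genes are the same values that made the fibroblast score, so they add names and no independent support to it.

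Genes that make, trim and break down collagen rose with COL6A3 as well, though not all of them. Of 12 tested genes of folding and modification 6 rose: FKBP10, a collagen chaperone of the endoplasmic reticulum (r = 0.80), CRTAP, a subunit of the prolyl 3-hydroxylase complex (0.74), FKBP14 (0.61), KDELR2, which returns chaperones to the endoplasmic reticulum (0.58), PDIA3 (0.57), and SERPINH1, the collagen chaperone also called HSP47 (0.48). PLOD1, a lysyl hydroxylase, had r = 0.105. Of 5 genes of processing and crosslinking 3 rose, LOX (r = 0.73, slope 0.51 ± 0.061), PCOLCE2, an enhancer of the C-propeptide cleavage (0.66), and LOXL1 (0.51), while BMP1, the C-proteinase itself, had 0.04. Of 6 genes of breakdown and its inhibitors 5 rose, with CTSK, a collagen-cutting cathepsin, at r = 0.86 and a slope of 0.31 ± 0.025, MMP2, gelatinase A, at 0.72, FAP at 0.62, TIMP1 at 0.46 and MMP14 at 0.43. TIMP2 had 0.23 in its brighter probe set.

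Other lists gave smaller counts with COL6A3. Of the 3 other collagens tested, COL5A3, the third chain gene of type V collagen, rose with r = 0.71 and COL15A1, a collagen of the basement membrane zone, with r = 0.37 (limma adjusted p = 2.6e-08 and 0.033), the latter lost without the 2 extreme pigs, with the adipocyte score as covariate and without any 1 of pigs 2, 19, 26, 32, 42 and 44; COL2A1 had r = -0.24. Of 5 other basement membrane genes 4 rose, FBLN1, LAMB1, NID2 and LAMB2, and 2 did so without the 2 extreme pigs or with the adipocyte score as covariate. Of 3 receptors, ANTXR2, an anthrax toxin receptor that binds type VI collagen, rose with r = 0.57, and ITGB1, the common integrin chain, had -0.04. Of 6 genes of the TGF-beta axis, which drives matrix production, TGFB3 rose with r = 0.46, while SMAD3 had -0.18 and TGFBR1 0.30. Macrophage markers rose in 8 of 8 tested, with a median slope of 0.26, and in 6 to 8 under the alternatives. Endothelial markers rose in 1 of 9, PECAM1 (r = 0.40, in 1 of its 2 probe sets), with a median of 0.0070, and in 2 with the first principal component as covariate or without any 1 of pigs 28, 41, 44 and 72. Smooth muscle and pericyte markers rose in 3 of 7 (TAGLN, ACTA2 and PDGFRB) and adipocyte markers in 2 of 4 (FABP4 and CIDEA), the latter in 1 without the 2 extreme pigs. In limma 0 of 2 nerve, 0 of 7 fast fibre and 0 of 12 heat shock genes were called, with 0 at an unadjusted p under 0.05 in each. The fast fibre count includes the genes named above that lay near the highest array value and hardly varied. TPM3 was the slow fibre gene of 8, KLF4 the immediate early gene of 9 (lost without pig 36) and RPL3 the ribosomal gene of 13 that rose with COL6A3.

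After FN1 the genes most like COL6A3 were LOC100623720 (r = 0.88; called in 1 of its 2 probe sets) and CTSK. ITM2C (0.83), KDELR3 (0.81), RCN1, a calcium-binding protein of the secretory pathway (0.81), and DAP (0.81) followed. The genes with the most negative t on COL6A3 were POLL (r = -0.57), ASB8 (-0.54), PIGQ (-0.52) and HPN (-0.52), with slopes from -0.10 to -0.073.

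Fibril partners and fibroblast markers rose with COL5A1 and COL6A2 too, and macrophage markers rose with COL5A1 in part and with COL6A2 in no case. In the fit of COL5A1, added after its bond with COL6A3 had been seen, 888 of 11998 probe sets were called, 7.40%. Fibril partners rose in 12 of 14 (median slope 0.22) and fibroblast markers in 10 of 11, while endothelial markers rose in 0 of 9 in limma, with 3 at an unadjusted p under 0.05. The genes most like COL5A1 were LOC100623720 (r = 0.76), DAP (0.75) and VIM, the intermediate filament of mesenchymal cells (0.75). CD81 (0.74), FN1 (0.74), CTSK (0.73), FBLN1 (0.72) and TSPO (0.71) came next, and TRNP1 had the most negative t, with r = -0.54 and a slope of -0.22 ± 0.044. With COL6A2, 7.73% of probe sets were called, fibril partners rose in 11 of 14 and fibroblast markers in 10 of 11. CD34 was among the fibroblast markers that rose with COL6A2 (r = 0.46). LOC100623720 (0.74), DCN (0.73) and MMP2 (0.71) were most like COL6A2. Macrophage markers rose in 3 of 8 with COL5A1, and in 2 to 5 under the alternatives and single pigs left out; with COL6A2 they rose in 0 of 8 in limma, with 0 at an unadjusted p under 0.05.

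COL4A2 went with vessel genes. Its fit called 988 of 11999 probe sets, 8.23%, of which 605 were higher (5.04%) and 383 lower (3.19%). PECAM1, the platelet and endothelial adhesion molecule, ran from 8.36 over 8.98 to 9.80 and was the most alike of all genes, with r = 0.83 and a slope of 0.23 ± 0.021 per SD of COL4A2, in both of its probe sets. RAMP2, which forms the adrenomedullin receptor of vessels, had r = 0.68 and CLDN5 and CDH5, proteins of endothelial junctions, 0.58 and 0.52. With VWF (0.47), these made 5 of 9 tested endothelial markers that rose (median slope 0.13, against 0.00032 over all tested genes), a count that stayed at 5 under every alternative run and without any 1 pig. ENG, EGFL7 and TEK were not called, at r = 0.04, 0.07 and 0.12. Of 7 smooth muscle and pericyte markers 3 rose, TAGLN (r = 0.58), PDGFRB (0.58) and ACTA2 (0.57). DES had r = 0.04, a gene that muscle fibres also express. TAGLN, PDGFRB and ACTA2 had risen with COL6A3 too.

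Of 5 genes of the basement membrane itself, 4 had risen with COL6A3. With COL4A2 3 of the 5 rose: LAMB1 (r = 0.54), LAMC1 (0.47) and FBLN1 (0.37; limma adjusted p = 0.047, lost without any 1 of 28 pigs). Of fibril partners only BGN (0.50), FN1 (0.42) and FBN1 (0.42) rose, 3 of 14, and 5 with the first principal component as covariate or without pig 28 or 37. DCN, at r = 0.06, and LUM, at 0.10, did not pass. Of folding genes 4 of 12 rose, PDIA3, COLGALT1, SERPINH1 and KDELR2, and PDIA3 and SERPINH1 alone of these 4 passed without the 2 extreme pigs. With the first principal component as covariate none of these 4 passed in limma (adjusted p = 0.055, 0.108, 0.110 and 0.175 for PDIA3, COLGALT1, SERPINH1 and KDELR2). Macrophage markers rose in 0 of 8 in limma, with 3 at an unadjusted p under 0.05. Next to PECAM1 and RAMP2 the genes named by t were MYL6 (0.68), MSN (0.62), VIM (0.61), MYH9 (0.61), ABCG2 (0.60) and ANXA2 (0.59). USE1 had the most negative t, with r = -0.57 and a slope of -0.072 ± 0.015. The number of probe sets that followed COL4A2 was 643 without pig 36, 637 without the 2 extreme pigs and 2165 with the adipocyte score as covariate.

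**Figure D5:**
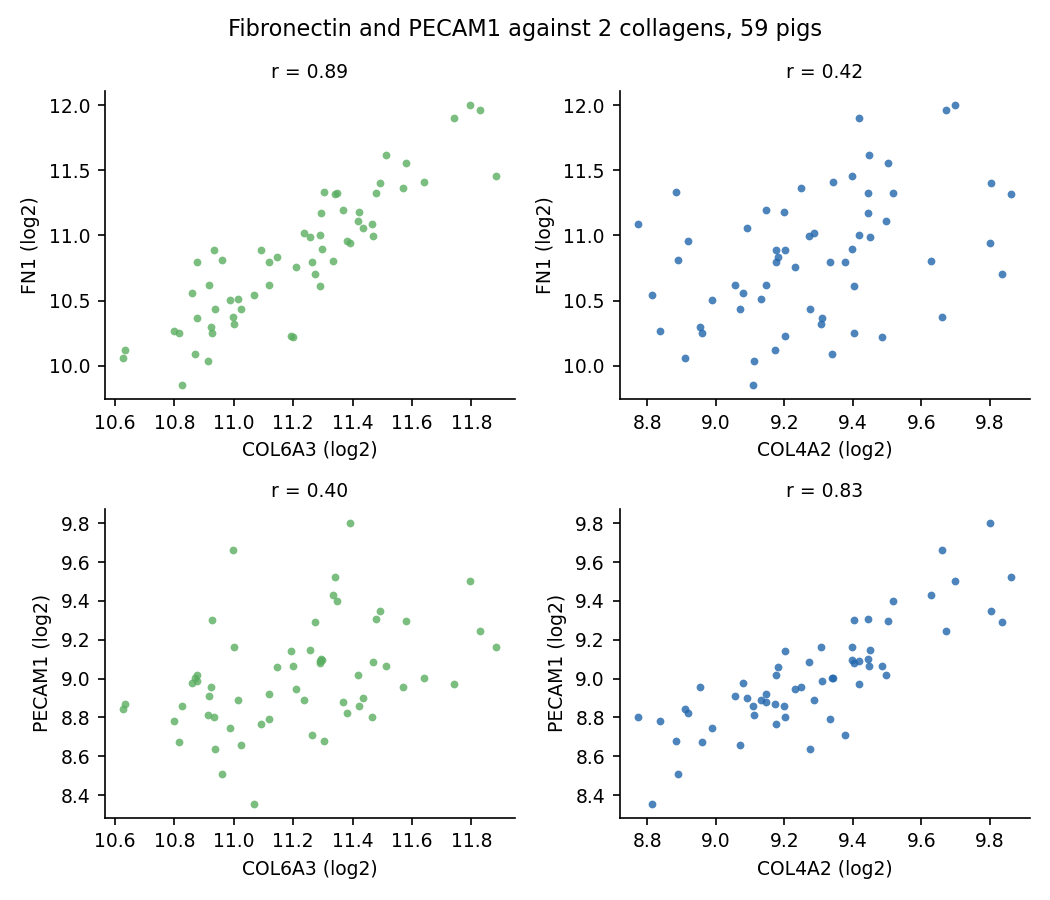
FN1 and PECAM1 (log2, vertical) against COL6A3 and COL4A2 (log2, horizontal), 1 point per pig, 59 pigs. FN1 lies close to a line with COL6A3 (r = 0.89) and scatters against COL4A2 (r = 0.42), and PECAM1 does the reverse (r = 0.40 and 0.83).

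The difference between the bonds with COL6A3 and with COL4A2 was tested gene by gene with both collagens in 1 model, a contrast added after the correlations had been seen. In limma 1492 of 11998 probe sets differed, 12.4%, of which 996 followed COL6A3 more (8.30%) and 496 COL4A2 more (4.13%). Fibril partners followed COL6A3 more in 11 of 14 and fibroblast markers in 7 of 11, with slope differences of 0.62 ± 0.070 for THY1, 0.46 ± 0.061 for FN1, 0.31 ± 0.043 for DCN and 0.79 ± 0.113 for LOX. Endothelial markers followed COL4A2 more in 4 of 9: PECAM1 (-0.23 ± 0.041), CDH5 (-0.28 ± 0.060), RAMP2 and ESAM, the last outside the naming rule and given to complete the count; without pig 72 the count was 2. DBT (-0.37 ± 0.061), TNFRSF21, TCN2 and ARNTL, a clock gene (-0.48 ± 0.090), also followed COL4A2 more. Of 7 smooth muscle and pericyte markers 1 followed COL4A2 more, RGS5 (limma adjusted p = 0.042, lost without any 1 of 9 pigs). TAGLN, PDGFRB and ACTA2 did not pass (limma adjusted p = 0.25, 0.64 and 0.64). Basement membrane genes followed COL4A2 more in 0 of 5 and COL6A3 more in 1, FBLN1. Its call (limma adjusted p = 0.041) was lost without any 1 of 12 pigs. Slow fibre genes followed COL4A2 more in 2 of 8 and heat shock genes in 2 of 12, with 6 and 8 at an unadjusted p under 0.05. Fast fibre genes followed COL6A3 more in 1 of 7, with 6 at an unadjusted p under 0.05. The fibre calls, MYL2, TNNI1 and ATP2A1, were lost without pig 72, and that of TNNI1 without any 1 of 20 pigs. The heat shock calls were HSPD1 and HSP90AA1, the latter lost without any 1 of 14 pigs. The endothelial score correlated with the slow fibre score at r = 0.48 and with the fast fibre score at -0.45. With the first principal component as covariate 489 probe sets differed, and without pig 72 814 did.

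Few probe sets passed with COL1A2, and no tested gene of the matrix lists was among them. The COL1A2 fit called 312 of 11999 probe sets, 2.60%, with 162 higher (1.35%) and 150 lower (1.25%). At such low shares, the lack of a call in lists of this size does not set matrix genes apart from all probe sets. Of 14 fibril partners, 11 fibroblast markers, 12 folding genes and 6 breakdown genes 0 were called in limma, with 2, 2, 2 and 0 at an unadjusted p under 0.05, and median slopes of 0.046, 0.032, -0.027 and 0.024. With the first principal component as covariate 2 fibril partners and 2 fibroblast markers were called. Leaving out pig 31, 36 or 44 called 1 or 2 fibril partners as well. The genes most like COL1A2 were SLC39A4 (r = 0.57) and SLC30A3 (0.56), both zinc transporters, and LRTM2 (0.55), while MRPL40, a mitochondrial ribosomal protein, had the most negative t, with r = -0.67 and a slope of -0.078 ± 0.013. Among the further genes were GH1, growth hormone, and ITGA2B, the platelet integrin chain, at r = 0.50 and 0.51. SLC39A4, SLC30A3, LRTM2, GH1 and ITGA2B had low means of 6.91, 7.04, 6.63, 6.80 and 6.65, near the limit of 6.27 for testing. The part of such low signals in these correlations was not tested. COL1A2 was also the member that fell with the ribosomal protein score, at -0.079 ± 0.023 (limma adjusted p = 0.025), 1 of 5 tested members against 5.53% of all tested probe sets. The count of 312 was 187 without pig 57 and 165 without the 2 extreme pigs, 712 with the first principal component as covariate and 667 without the filter. The count of 667 is out of more tested probe sets than that of 312.

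Set against COL4A2 in 1 model, COL1A2 differed for 680 of 11998 probe sets, 5.67%, in limma, of which 2.49% followed COL1A2 more and 3.18% COL4A2 more. Endothelial markers followed COL4A2 more in 4 of 9, PECAM1 with a difference of -0.23 ± 0.031, RAMP2 with -0.15 ± 0.029, CDH5 with -0.21 ± 0.046 and TEK with -0.14 ± 0.043 (limma adjusted p = 0.044, lost without any 1 of 22 pigs). No list held ERG, a transcription factor of endothelium, which differed by -0.23 ± 0.041. MYL6 differed by -0.29 ± 0.049, and SLC39A4 and AHR followed COL1A2 more, by 0.14 ± 0.028 and 0.12 ± 0.025. Fibril partners differed in 0 of 14 in limma, with 4 at an unadjusted p under 0.05. The count of 680 was 324, 247, 260 and 355 without pig 9, 35, 36 or 52, 382 with the first principal component as covariate and 1533 without the filter. The count of 1533 is out of more tested probe sets than that of 680.

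COL3A1 and COL5A2 lay below the limit but could serve as predictors. COL3A1 called 529 of 12000 probe sets, 4.41%, of which 419 were lower. FH, fumarase of the citric acid cycle, was most like it (r = 0.52), followed by ECHDC1 (0.50) and NUBP2 (0.49). These 3 calls were lost with the first principal component as covariate (limma adjusted p = 0.146, 0.331 and 0.255), and that of NUBP2 also without the 2 extreme pigs (limma adjusted p = 0.062). Heat shock genes fell with COL3A1 in 8 of 12, where 3.49% of all tested probe sets fell, among them BAG3 (r = -0.50), DNAJA1 (-0.49) and HSPH1 (-0.49), and on the heat shock score COL3A1 had a slope of -0.11 ± 0.026 (limma adjusted p = 0.00084 with all probe sets tested). The count of 8 was 5 with no filter, 3 without the 2 extreme pigs and 0 with the first principal component as covariate, a component that correlated with the heat shock score at r = -0.865. It was 5 to 10 with a single pig left out, and 5 without any 1 of pigs 11, 16, 30, 32, 37 and 74. COL5A2 called 1176 of 12000 probe sets, 9.80%. SLC2A4, the insulin-regulated glucose transporter, was most like it (r = 0.65; called in 1 of its 2 probe sets), followed by C1QTNF6 (0.63) and ETNK2 (0.63). SLC2A4, C1QTNF6 and ETNK2 had low means of 7.29, 6.53 and 7.04. The part of low signal in their correlations with COL5A2, itself dim, was not tested. Of 14 fibril partners COL5A2 called 0 in limma, with 1 at an unadjusted p under 0.05, and COL3A1 called 1, DPT (r = 0.39; limma adjusted p = 0.047), a call lost with no filter, with re-centred arrays, with the first principal component as covariate and without any 1 of 32 pigs.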

How the data were processed

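Per the submitters' processing notes the arrays were summarised with GCRMA (background correction, quantile normalisation and probe set summary), of which neither version nor log base is given in the sources used here. Deposited values are treated as log2 expression, since they run from 2.39 to 15.04, and were not changed. Of 24123 probe sets, 124 of them controls, 10069 carried 1 gene symbol and 198 several, which were not named. Symbols were updated through Entrez identifiers. A gene is represented by its brightest tested probe set.

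Slopes, in log2 per SD of a collagen, of a marker score or of the control difference, were fitted with limma 3.58.1 in R 4.3.3 over all 59 pigs, 1 array each, so that p-values measure the spread among pigs. Correlations of member pairs used numpy 2.4.6 with ranks from scipy 1.17.1, and those among the collagen probe sets used pandas 2.3.3. Probe sets of the predictor or of the score's genes were left out. Per predictor the genes named are the 3 with the largest r, for the main predictors also the 8 highest and 4 lowest t past the threshold (6 each way for contrasts), and up to 4 genes of each list; further list genes, named to complete a count or as its exceptions, were chosen after their values were seen. The members and lists were chosen with earlier results of these data known. The number of arrays limits the precision.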

Additional observations from a re-analysis of the deposited data

How the results depend on the processing

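No paired analysis was possible because the arrays form 1 group. Without the filter on dim probe sets, those following COL1A2 numbered 667, those following COL6A3 2438 and those differing between COL1A2 and COL4A2 1533. The filter kept 12000 of the 24123 probe sets on the array. The unfiltered counts are thus out of more tested probe sets and cannot be set directly against the filtered ones. Without the 2 extreme pigs the counts were 165 for COL1A2 and 637 for COL4A2. With the first principal component (19.9% of the variance) as covariate they were 712 for COL1A2, 382 for COL1A2 against COL4A2 and 489 for COL6A3 against COL4A2, and with the adipocyte score as covariate 2165 for COL4A2. Members following the smooth muscle and pericyte score fell from 2 to 1 with re-centred arrays, without the 2 extreme pigs, with normal scores and with the mean of a gene's probe sets; members following the heat shock score fell from 1 to 0 without the filter, with re-centred arrays and with the component. The cause was not tested. With each pig left out in turn, probe sets numbered 187 to 421 for COL1A2, 1376 to 1737 for COL6A3, 643 to 1216 for COL4A2, 671 to 962 for COL5A1, 247 to 904 for COL1A2 against COL4A2 and 814 to 1973 for COL6A3 against COL4A2. Members numbered 3 to 4 for the fibroblast, 2 to 3 for the adipocyte, 1 to 2 for the smooth muscle and pericyte and 0 to 1 for the heat shock score, and 3 to 4 for fibroblast minus endothelial slope; the endothelial (1), macrophage (2), slow fibre, immediate early and control (0) counts did not move. The dim signals of COL3A1 and COL5A2 limit what can be said of them.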
